A study of Mus musculus with 6 samples.

Results

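The potassium channel genes outside the KCNQ family were described in mouse primary cortical neurons with and without NMDA stimulation. They were chosen by name: a gene symbol that begins with Kcn and continues with letters and a closing number, without the KCNQ subunits, and at least 10 reads in 3 or more of the 6 libraries. The count matrix listed 38293 genes; 87 symbols matched, 63 of them had enough reads, and all 63 were tested. The rule itself used names and read counts and no difference between the groups, but it was set with earlier results of these data known. Both groups were wild-type cortical neurons taken from Swiss-Webster mice at embryonic day 16 and kept in culture for 13 days. The control group (3 libraries, treatment given as none) was compared with the NMDA group (3 libraries), which received 50 µM NMDA, a glutamate receptor agonist, for 10 minutes and then 50 minutes of drug-free medium before collection. The growth protocol that all samples share also mentions etoposide, with which no library is labelled. Cells came from dissociated cortex, so other cell types can be present, and whether the 3 samples of a group were separate cultures is not stated: the extract protocol speaks of 2 replicates. The p-values thus rest on variation among these libraries, which may be technical in part.

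Potassium channels let potassium leave the cell and thereby pull the membrane towards rest. Voltage-gated (Kv) channels repolarise action potentials and set firing patterns, inward rectifiers (Kir) hold the resting potential and carry signals of G-protein-coupled receptors and metabolic state, and 2-pore-domain (K2P) channels carry the leak current. Calcium- and sodium-activated channels open when these ions enter during firing. Auxiliary subunits do not form the pore and change the gating, assembly or transport of the subunits that do. Some Kv subunits are electrically silent alone and modify other Kv channels, chiefly those of the Kv2 family. Sorted into these classes by gene symbol, the 63 genes were 29 Kv, 9 Kir, 9 K2P, 7 calcium- or sodium-activated and 9 auxiliary genes. The class of 7 follows names rather than measured gating and also holds Kcnu1, the Slo3 channel.

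The libraries held between 15417234 and 19183999 counted reads. All 7 immediate early genes examined to check the labels, among them Fos, Npas4 and Arc, were higher in the NMDA libraries (edgeR adjusted p under the threshold of 0.05 in each). Levels are given in CPM, read counts scaled by library size and TMM factor. Libraries with the same number in both groups deviated from their group means together, with correlations of 0.54, 0.38 and 0.49 for numbers 1, 2 and 3, so each comparison is given by group alone and within pairs of the same number. The pairing comes from the data, since no label explains the numbers. Markers of excitatory neurons summed to between 1066 and 1373 CPM over the 6 libraries, and those of inhibitory neurons to between 686 and 767 CPM. Astrocyte transcripts were present too: their 10 markers summed to between 2163 and 2834 CPM in control and between 2337 and 3565 CPM in NMDA libraries, while 10 microglia markers summed to at most 6.18 CPM. Oligodendrocyte lineage markers summed to 577 to 1116 CPM in control and 698 to 1083 CPM in NMDA libraries. Both libraries of number 1 stood apart in the myelin gene Mbp, at 65.9 CPM in control and 58.3 CPM under NMDA, against 15.99 CPM or less in the other 4.

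Levels between genes were compared per kilobase of annotated exon, as CPM per kilobase, averaged over the 6 libraries where no group is named. The 63 genes spanned 0.218 to 78.3 CPM per kilobase, with a median of 2.38. Kcnj10, the Kir4.1 channel with which astrocytes take up potassium, stood far above the others, at 70.5 ± 4.29 in control and 86.1 ± 13.7 in NMDA libraries (CPM per kilobase, mean ± SD, n = 3 per group). Next came the K2P genes Kcnk1 (22.1 CPM per kilobase) and Kcnk2 (17.8), followed by Kcnj4 (14.4), Kcnd3 (14.0), Kcnv1 (13.3), Kcnd2 (13.3) and Kcna1 (12.9). The SD over the 6 libraries was 5.82 CPM per kilobase for Kcnk1, 3.08 for Kcnk2 and 1.83 for Kcnj4. Kcnk1 and Kcnk2 thus lay within the SD of Kcnk1, Kcnk2 and Kcnj4 lay further apart than the SD of either, and Kcnj4 and Kcnd3 lay within the SD of both. Kcnip3 had the highest level of the auxiliary genes (10.9 CPM per kilobase) and Kcnn2 of the calcium- and sodium-activated ones (4.06). The lowest was Kcnk5 (0.218), which was also the only one of the 63 with fewer than 10 reads in any library (6 to 22 reads). Just outside the minimum lay Kcnh6 and Kcnj13, each with 10 reads or more in 2 libraries and at most 12 and 17 reads. Of the 24 genes below the minimum, all members of the Kcne family of small auxiliary subunits in the table had 6 reads or fewer in every library, and Kcnj8, known from pericytes, had 1 at most.

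**Figure D1:**
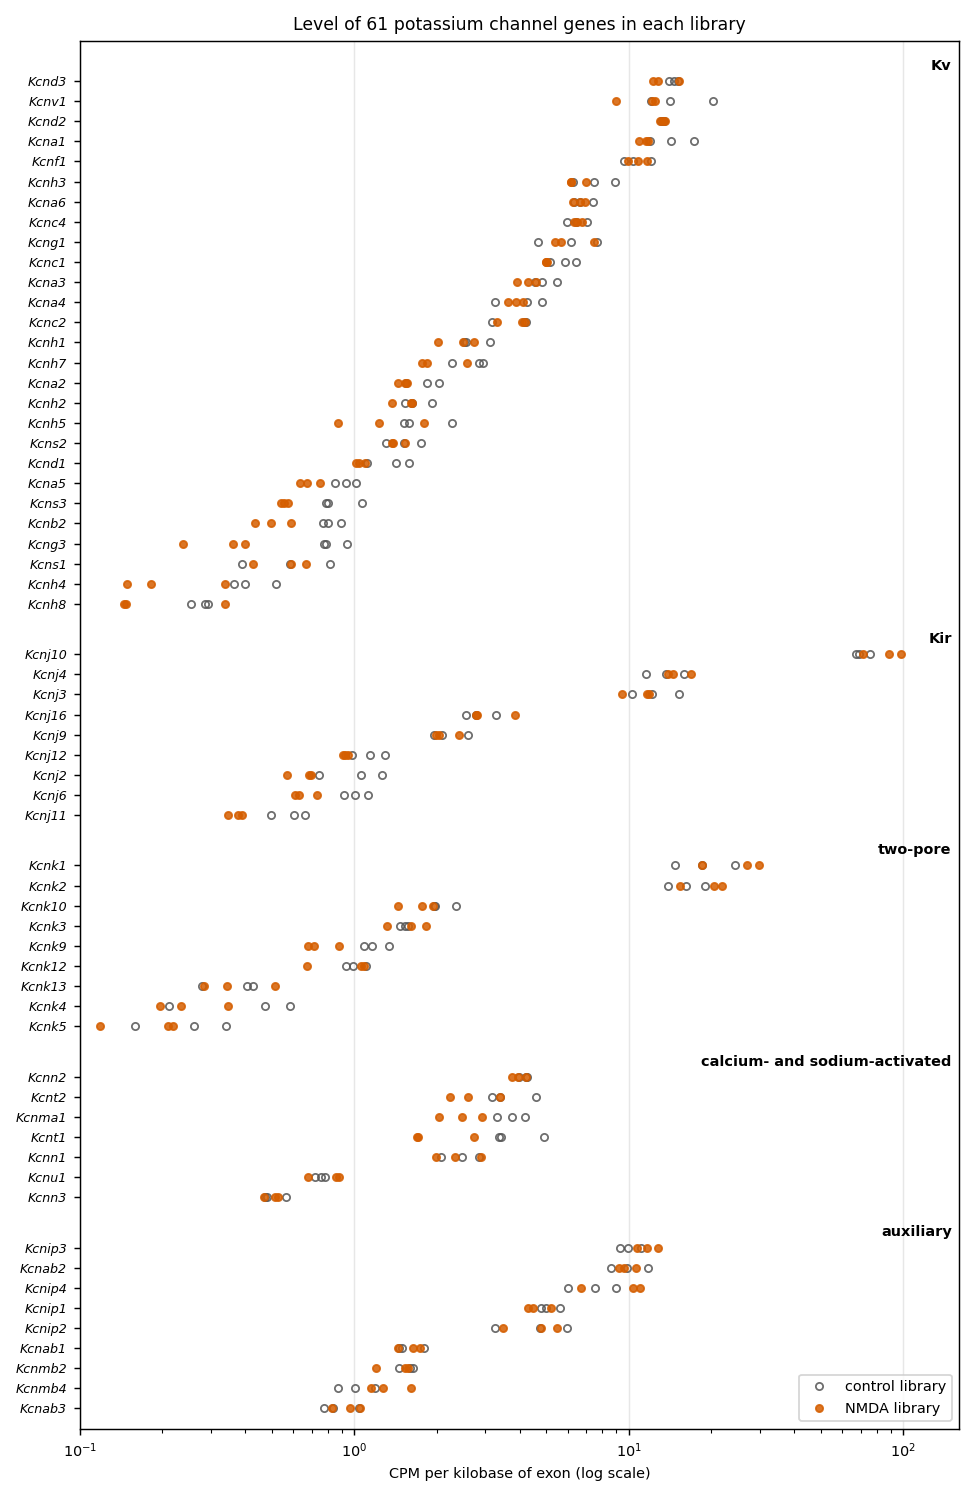
Level of 61 of the 63 genes in CPM per kilobase of exon (log axis), 1 point per library, grouped by class and ordered by mean level. Kcnj10 is highest at 78.3 and Kcnk5 lowest at 0.218, and the NMDA points of Kcng3, Kcnb2 and Kcnk9 lie to the left of their control points.

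Stimulation by NMDA was followed by lower levels of a minority of these genes when libraries were compared within pairs. In that fit 13 of the 63 fell and 3 rose. Over all 14642 genes tested, 8.35% fell and 5.65% rose in the same fit, against 20.6% and 4.76% of these 63. By group alone edgeR called none of them, with 0 higher (0.376% of all tested genes) and 0 lower (0.0546%), and the smallest adjusted p was 0.10. At an unadjusted p under 0.05 that fit had 15 lower (8.47% of all tested genes) and 1 higher (5.19%). DESeq2 by group alone called 5 lower (1.07% of all genes) and 0 higher (1.02%), and limma-voom called 0 in either direction (0.362% of all genes higher and 0.0478% lower). Without a low-count filter edgeR called 4 lower and 0 higher (0.545% of all genes in each direction), and without NMDA replicate 1 it called 2 lower (0.383%) and 0 higher (0.598%). The median log2 change was -0.12 for the 63 genes and -0.0054 for all tested genes, and 71.4% of the 63 had a negative change against 50.9% of all. In 16 of the 63 (25.4%, against 11.1% of all tested genes) every NMDA library lay below every control library, and in none did every NMDA library lie above (8.18% of all). Of those 16 genes 9 fell within pairs; Kcna5, Kcnc1, Kcnd1, Kcns3, Kcnj11, Kcnj12 and Kcnk10 did not pass. The 47 genes that did not pass had changes by group from -0.69 to 0.39 on the log2 scale, and 20 of them lay within 0.1 of 0.

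By class, 7 of 29 Kv, 3 of 7 calcium- or sodium-activated, 2 of 9 Kir and 1 of 9 K2P genes fell within pairs. In the same fit 1 Kir and 2 K2P genes rose, and none of the 9 auxiliary genes passed in either direction. The falls made up 24.1% of Kv, 42.9% of calcium- or sodium-activated, 22.2% of Kir and 11.1% of K2P genes, against 8.35% of all tested genes. The rises made up 11.1% of Kir and 22.2% of K2P genes, against 5.65% of all. The median log2 changes by group were -0.22 (Kv), -0.19 (Kir), -0.11 (K2P), -0.06 (calcium- or sodium-activated) and 0.02 (auxiliary). Differences between classes were not tested. Summed over the class, Kv transcripts came to 832, 783 and 910.1 CPM in control replicates 1, 2 and 3 and to 748, 733 and 749 CPM in NMDA replicates 1, 2 and 3. The sums of the calcium- and sodium-activated genes were 186, 157 and 187 CPM in control and 146, 120.2 and 122 CPM in NMDA libraries. In both classes all NMDA sums lay below all control sums. Kir sums were 486, 531 and 529 CPM in control and 511, 643 and 614 CPM in NMDA libraries and overlapped; Kcnj10 made up most of each.

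**Figure D2:**
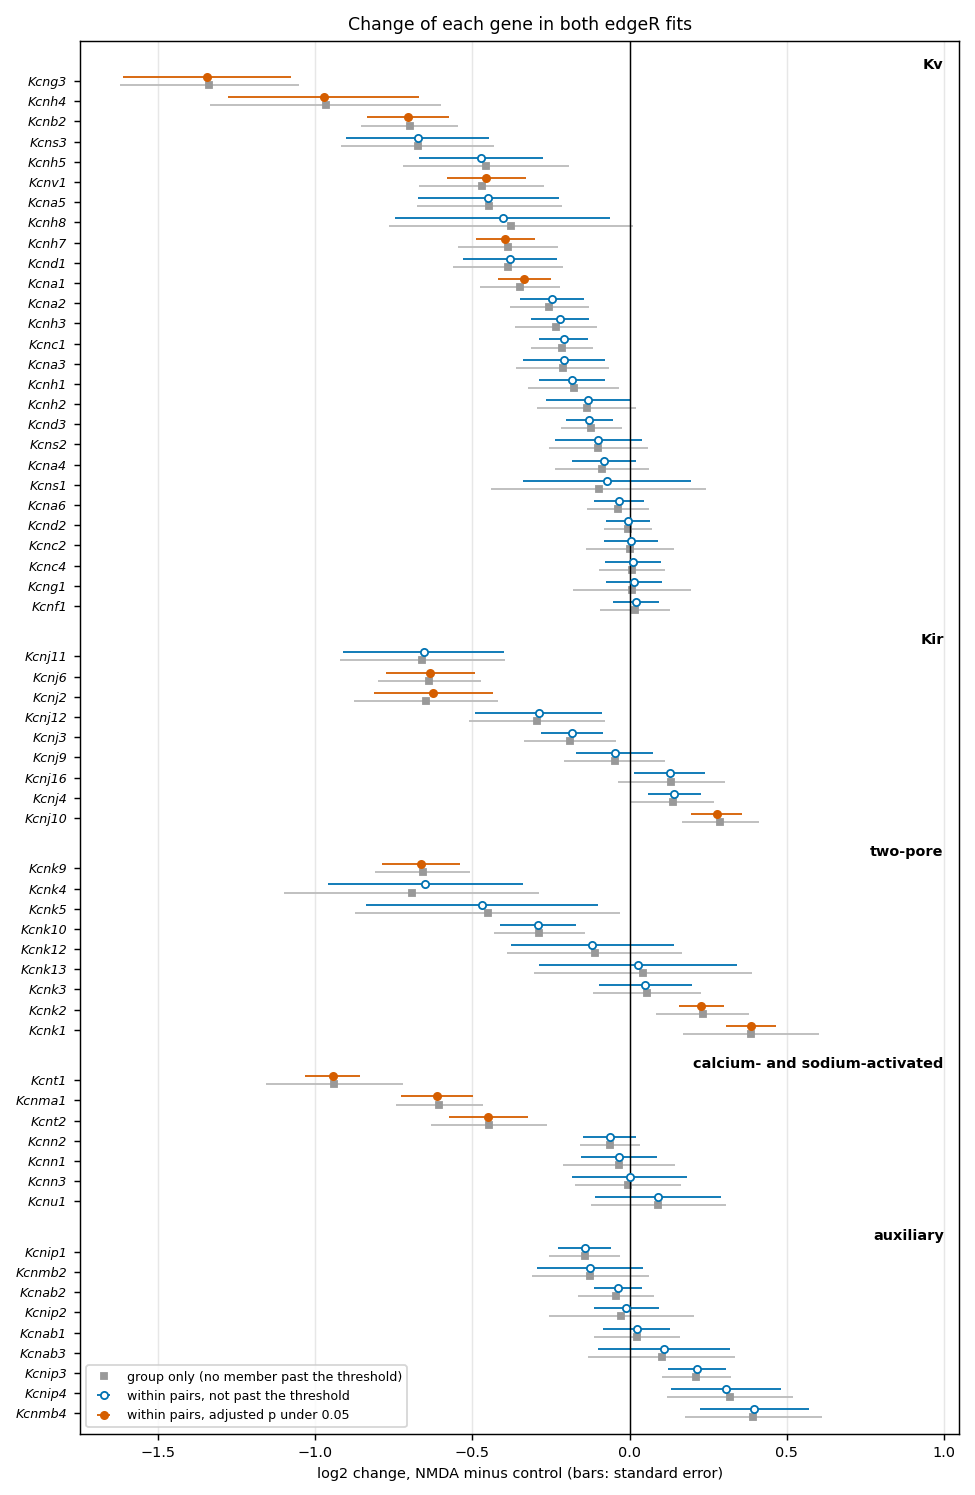
log2 change of 61 of the 63 genes, NMDA minus control, with its standard error, by group alone (grey squares) and within pairs (circles, filled where the adjusted p was under 0.05), grouped by class. Both fits place a gene at nearly the same change, the bars are mostly shorter within pairs, and 12 filled circles lie left of 0 and 3 right of it.

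Among channels opened by sodium or calcium, the 2 sodium-activated genes and the BK channel gene fell, and the SK genes did not pass. Kcnt1, which encodes the sodium-activated channel Slack, was at 46.8, 32.0 and 32.4 CPM in control replicates 1, 2 and 3 and at 26.0, 16.2 and 16.04 CPM in NMDA replicates 1, 2 and 3. The groups did not overlap, and the pairs were alike, at log2 differences of -0.85, -0.98 and -1.01. Within pairs the log2 change was -0.95 ± 0.09 (SE; edgeR adjusted p = 3.71e-07), a ratio of 0.519, and by group -0.94 ± 0.22 (adjusted p = 0.14). Without NMDA replicate 1, the highest of the NMDA libraries, the comparison by group passed as well (-1.19, edgeR adjusted p = 0.018). It did not pass without any other single library (adjusted p from 0.17 to 0.54). Kcnt1 lies on chromosome 2 from 25863734 to 25918273 of GRCm38. Kcnt2, the related channel Slick, was at 23.3, 21.8 and 31.8 CPM in control and at 23.3, 15.4 and 17.9 CPM in NMDA libraries. Its level was the same in both libraries of number 1 and lower under NMDA in the other pairs. The change within pairs was -0.45 ± 0.13 (edgeR adjusted p = 0.029; by group 0.33), and without both libraries of number 3 it was -0.23 (adjusted p = 0.27). Whether Kcnt1 and Kcnt2 differed in their response was not tested.

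Kcnma1 encodes the pore of the BK channel, which opens on voltage and calcium together and shortens action potentials. It was at 63.7, 56.4 and 71.1 CPM in control and at 49.6, 41.8 and 34.5 CPM in NMDA libraries. The highest NMDA library stayed below the lowest control library, and the change was largest in pair 3. Within pairs it fell by 0.61 on the log2 scale (SE 0.11, edgeR adjusted p = 0.0045). By group the adjusted p was 0.13, or 0.036 without NMDA replicate 1, its highest NMDA library, where the change was -0.73. Leaving out any other single library gave adjusted p from 0.19 to 0.50 by group. Without both libraries of number 3 the change within pairs was -0.38 and still passed (adjusted p = 0.0042). Exons of Kcnma1 (chromosome 14, 23289431 to 24014491) overlap those of a noncoding transcript on the other strand over 1016 bases. The SK channels, opened by calcium alone through calmodulin, had changes by group near 0: Kcnn2 was at 31.8, 29.8 and 31.4 CPM in control and 29.4, 28.1 and 31.5 CPM in NMDA libraries (-0.06 ± 0.10, adjusted p = 0.81). Levels of Kcnn1 were 11.3 ± 1.79 and 11.03 ± 2.10 CPM, and those of Kcnn3 5.29 ± 0.535 and 5.26 ± 0.324 CPM (control and NMDA, mean ± SD, n = 3). Kcnu1, the Slo3 channel known from sperm, was at 2.82 ± 0.119 and 3.01 ± 0.411 CPM.

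Kv2 channels carry the delayed rectifier current of neuronal cell bodies, and Kcnb2, which encodes a pore of this family, fell. It was at 12.1, 11.7 and 13.6 CPM in control and at 8.92, 7.55 and 6.61 CPM in NMDA libraries, with no overlap. Its change within pairs was -0.70 ± 0.13 (edgeR adjusted p = 0.0012; by group 0.11). Kcnb2 (chromosome 1, 15287254 to 15723750) kept its call without any 1 of the pairs.

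Silent Kv subunits, which assemble with Kv2 pores, included the steepest fall of the 63. Kcng3 was at 2.65, 2.61 and 3.17 CPM in control and at 1.34, 1.21 and 0.799 CPM in NMDA libraries. It thus fell in every pair, with log2 differences of -0.98, -1.11 and -1.99, and the fitted change was -1.34 ± 0.27 (edgeR adjusted p = 0.0021; by group 0.10). Kcnv1 was the most abundant silent subunit per kilobase, at 55.04, 64.9 and 93.2 CPM in control and 55.7, 41.3 and 56.9 CPM in NMDA libraries. It was level in pair 1 (0.02) and lower in pairs 2 and 3 (-0.65 and -0.71), with a fitted change of -0.46 ± 0.13 (edgeR adjusted p = 0.040; by group 0.35). The 5 other silent subunits did not pass. Kcnf1, the most abundant of them in CPM, had overlapping groups at 51.1 ± 6.05 and 51.7 ± 4.32 CPM, as had Kcng1 at 27.7 ± 6.79 and 27.9 ± 5.09 CPM.

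In the EAG, ERG and ELK family, whose channels gate slowly and set excitability near threshold, 2 of 7 genes fell. Kcnh7, an ERG channel, was at 43.4, 34.6 and 44.8 CPM in control and at 39.3, 26.9 and 28.0 CPM in NMDA libraries (within pairs -0.39 ± 0.09, edgeR adjusted p = 0.0089; by group 0.33). Its groups overlapped through NMDA replicate 1, and without the libraries of number 3 the change was -0.24 (adjusted p = 0.18). Exons of Kcnh7 overlap those of Gca on the other strand over 696 bases, and the strand setting of the counting is not given in the sources used here. Kcnh4, an ELK channel, was at 2.06, 1.45 and 1.58 CPM in control and at 1.34, 0.716 and 0.586 CPM in NMDA libraries (-0.97 ± 0.30, edgeR adjusted p = 0.037; by group 0.30). It did not pass without the libraries of number 2 (-0.96, adjusted p = 0.11) or number 3 (-0.77, adjusted p = 0.22). The other 5 genes of the family also had negative changes, and none of them passed with all libraries. Kcnh5, an EAG channel, had log2 differences of -0.86, 0.24 and -0.88 in pairs 1, 2 and 3. It passed only when number 2, the pair in which it was higher, was left out (-0.87, edgeR adjusted p = 8.04e-04).

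Kv1 channels sit on axons and limit repetitive firing. Of 6 Kv1 genes Kcna1 fell, from 67.9, 57.0 and 82.9 CPM in control to 56.1, 52.2 and 54.997 CPM in NMDA libraries, a change within pairs of -0.34 ± 0.08 (edgeR adjusted p = 0.012; by group 0.28). The NMDA libraries lay just below the lowest control library, and without number 3 the change was -0.19 (adjusted p = 0.25). The other Kv1 genes, Kcna2 to Kcna6, had negative changes by group that did not pass. None of the Kv3 genes, which serve fast spiking, and none of the Kv4 genes, which carry A-type current in dendrites, passed in either fit. Kcnd3, the highest Kv gene per kilobase, was at 140.4, 145 and 134 CPM in control and at 122, 145 and 118 CPM in NMDA libraries (-0.12 ± 0.10 by group, adjusted p = 0.61). Kcnd2 was nearly level, at 68.5 ± 0.724 and 68.2 ± 1.43 CPM (control and NMDA, mean ± SD, n = 3). Among Kv3 genes, Kcnc2 and Kcnc4 had overlapping groups whose means differed by less than 1 SD. Kcnc1 was lower in every NMDA library than in every control library, at 54.96 ± 5.94 and 47.3 ± 0.220 CPM, and did not pass (adjusted p within pairs 0.082).

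**Figure D3:**
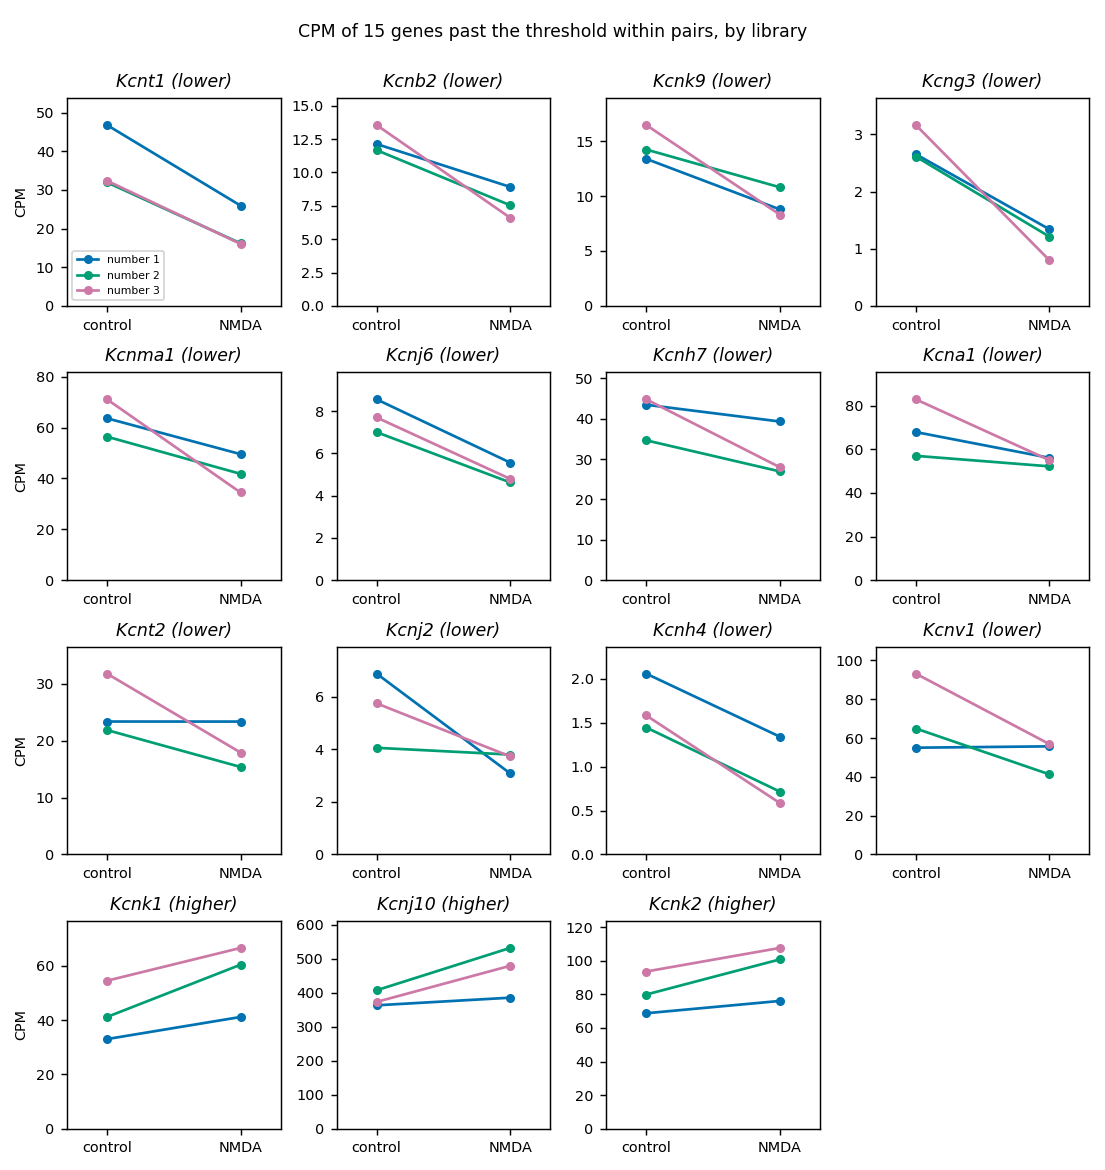
CPM in control and NMDA libraries for 15 of the 16 genes past the threshold within pairs, with a line for each pair of the same number and every axis starting at 0. All lines of Kcnt1, Kcnb2, Kcnk9, Kcng3, Kcnma1 and Kcnj6 fall, all lines of the 3 genes on the higher side rise, and for Kcnt2 and Kcnv1 the line of number 1 is level.

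Of the inward rectifiers, 2 fell and 1 rose. Kcnj6, the GIRK2 subunit of G-protein-gated channels, was at 8.56, 7.004 and 7.70 CPM in control and at 5.57, 4.63 and 4.80 CPM in NMDA libraries. The groups did not overlap and the 3 pairs differed little, at -0.62, -0.60 and -0.68 (fitted change -0.63 ± 0.14, edgeR adjusted p = 0.0052; by group 0.17). Its partner subunits did not pass: Kcnj3 (GIRK1) was at 65.5 ± 13.1 and 57.4 ± 6.95 CPM and Kcnj9 (GIRK3) at 9.49 ± 1.45 and 9.18 ± 1.01 CPM. Kcnj3 had log2 differences of 0.21, -0.36 and -0.38 in pairs 1, 2 and 3. It passed only when number 1, the pair in which it was higher, was left out (-0.36, edgeR adjusted p = 7.85e-04). Kcnj2, a strong rectifier of the Kir2 family, was at 6.88, 4.06 and 5.75 CPM in control and at 3.09, 3.80 and 3.73 CPM in NMDA libraries (-0.62 ± 0.19, edgeR adjusted p = 0.034; by group 0.27). Most of this came from pair 1 (-1.16) and pair 3 (-0.62), and without number 1 the change was -0.37 (adjusted p = 0.22) and without number 3 -0.61 (adjusted p = 0.061). Kcnj11, the pore of the ATP-sensitive channel, was at 2.22, 1.83 and 2.43 CPM in control and 1.27, 1.43 and 1.39 CPM in NMDA libraries. These groups did not overlap, yet the change of -0.66 ± 0.26 did not pass (adjusted p = 0.32 by group and 0.095 within pairs).

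Kcnj10 was at 363, 407 and 373 CPM in control and at 385, 532 and 479 CPM in NMDA libraries. It rose within pairs (0.28 ± 0.08, edgeR adjusted p = 0.028; by group 0.34) by 0.09, 0.38 and 0.36 on the log2 scale in pairs 1, 2 and 3, and did not pass without number 2 (0.22, adjusted p = 0.36) or number 3 (0.25, adjusted p = 0.095). Kcnj16, its Kir5.1 partner, was at 11.3 ± 1.49 and 12.4 ± 2.45 CPM and did not pass. The other 2 rises were K2P genes. Kcnk1 (TWIK-1) was at 33.0, 41.2 and 54.5 CPM in control and at 41.2, 60.4 and 66.6 CPM in NMDA libraries. The groups overlapped, while each NMDA library exceeded its partner by 0.32, 0.55 and 0.29 on the log2 scale (fitted change 0.39 ± 0.08, edgeR adjusted p = 0.0024; by group 0.47). Without number 2 Kcnk1 did not pass (0.30, adjusted p = 0.083). Kcnk2 (TREK-1), a channel gated by membrane stretch and lipids, was at 68.7, 79.9 and 93.6 CPM in control and at 76.1, 101 and 108 CPM in NMDA libraries (0.23 ± 0.07, edgeR adjusted p = 0.037; by group 0.52). It lost its call without number 2 (0.17, adjusted p = 0.41) or number 3 (0.26, adjusted p = 0.065).

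Kcnj10, Kcnk1 and Kcnk2 are all known to be expressed by astrocytes, though not all of them by astrocytes alone. Of the 10 astrocyte markers, 9 had enough reads to be tested; 7 of these rose within pairs and none fell, and their mean log2 differences were 0.19, 0.39 and 0.28 in pairs 1, 2 and 3. All 9 had positive changes, with a median of 0.31, and none passed by group. Of all tested genes, 5.65% rose and 8.35% fell within pairs. The marker not tested, Gjb6, was at no more than 0.211 CPM in any library. Some genes of other non-neuronal marker lists rose too. They were Tagln (0.67, edgeR adjusted p = 1.17e-05) and Acta2 (0.56, adjusted p = 0.0092) among 7 tested endothelial and mural markers. Among 9 progenitor and cycling markers they were Nes (0.37, adjusted p = 0.0030) and Sox2 (0.22, adjusted p = 0.046). The remaining markers on both lists did not pass, and 2 on each had negative changes by group, among them Pecam1 and Hes5. Mean levels in control and NMDA libraries were 47.0 and 76.7 CPM for Tagln and 52.5 and 80.1 CPM for Acta2. Endothelial markers were nearly absent: Pecam1 was at 1.34 and 1.14 CPM, and Cldn5 at 0 in every library. Which cells the Tagln and Acta2 reads came from was not tested. Median changes within pairs were 0.23 for the endothelial and mural list and 0.05 for the progenitor list. Of 11 oligodendrocyte lineage markers Mog fell (-0.65, adjusted p = 0.040). The part of astrocyte transcripts, or of transcripts on the mural and progenitor lists, in the rises of channel genes was not tested. Markers of excitatory neurons had 2 higher and 1 lower of 10 within pairs, with mean differences of 0.19, -0.06 and -0.05. Those of inhibitory neurons had 1 higher and 1 lower of 13, with 0.12, -0.05 and 0.13. The summed inhibitory markers were at 686 to 712 CPM in control and 732 to 767 CPM in NMDA libraries. The summed excitatory markers were at 1242 to 1373 and 1066 to 1265 CPM. These sums lean on their most abundant genes. Camk2a, the excitatory marker that fell (-0.39, edgeR adjusted p = 0.0022), was at 679 ± 73.3 and 518 ± 52.0 CPM. Gad1, which did not pass, was at 216 ± 17.2 and 252 ± 11.1 CPM (control and NMDA, mean ± SD). Sums without these genes were not formed. Median changes within pairs were -0.03 for the excitatory and 0.03 for the inhibitory list. The part of neuronal composition in the falls was not tested. In bulk RNA, fewer cells of a type and less RNA per cell cannot be told apart.

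The remaining K2P fall was Kcnk9 (TASK-3), an acid-sensitive leak channel. It was at 13.4, 14.2 and 16.5 CPM in control and at 8.79, 10.8 and 8.31 CPM in NMDA libraries. The highest NMDA library lay below the lowest control library, and the change within pairs was -0.66 ± 0.12 (edgeR adjusted p = 0.0013; by group 0.13). It kept its call without any 1 of the pairs. Its relative Kcnk3 (TASK-1) was at 6.04 ± 0.187 and 6.28 ± 1.01 CPM and did not pass. Kcnk10 (TREK-2), at 17.3, 17.1 and 20.6 CPM in control and 17.0, 15.5 and 12.6 CPM in NMDA libraries, passed without number 1 (-0.42, adjusted p = 0.021). Kcnk4 (TRAAK) had the largest change of the K2P genes by group, -0.69 ± 0.41, but its libraries overlapped, at 2.60, 0.945 and 2.11 CPM in control and 0.872, 1.047 and 1.55 CPM in NMDA libraries (adjusted p = 0.48). Its exons share 587 bases with Catsperz on the same strand, so reads there could have gone to either gene or to none.

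**Figure D4:**
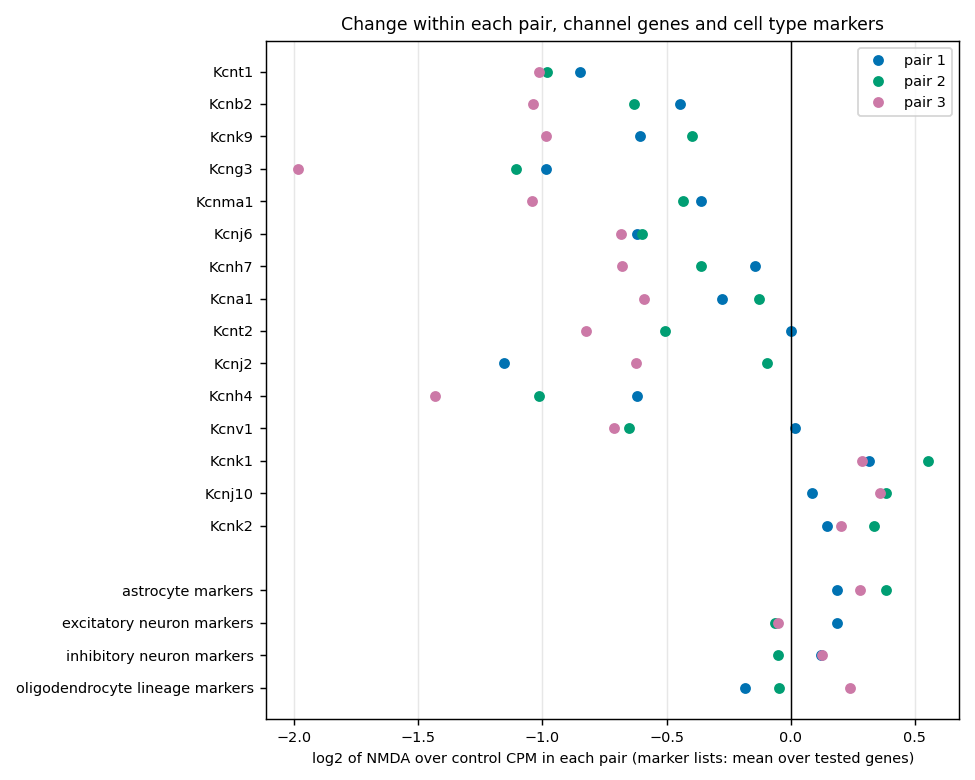
log2 ratio of NMDA over control CPM in each pair, for 15 of the 16 genes past the threshold within pairs and, below them, the mean over tested genes of 4 marker lists. Of the 12 falling genes drawn, 11 have their lowest point in pair 3, and the 3 rising genes and the astrocyte markers lie right of 0 in every pair.

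The largest fall within the 13 genes was in pair 3 for 12 of them and in pair 1 for Kcnj2. Without both libraries of number 3, 7 of the 63 were lower (5.14% of all genes in that fit) and 2 higher (4.78%). Without number 1 these were 14 (9.31% of all) and 4 (9.14%), and without number 2 they were 12 (4.63%) and 1 (2.27%). All 16 genes kept their direction in each of these fits. Each fit without a pair held 4 libraries and left 1 residual degree of freedom, so its p-values rest on little replication. Kcnt1, Kcnb2, Kcng3, Kcnk9 and Kcnma1 passed in all 7 blocked fits run, which included DESeq2 and offsets for GC content and length. With DESeq2 and the same pairing 6 of the 63 were lower (3.62% of all genes) and 2 higher (2.96%), and the genes that lost their call included Kcna1, Kcnv1, Kcnj2, Kcnj6, Kcnk2 and Kcnt2. DESeq2 gave Kcnh4 no adjusted p. With DESeq2's size factors in the edgeR fit within pairs 13 were lower (7.86% of all genes) and 3 higher (6.32%). On the other strand, exons of noncoding transcripts overlap those of Kcnk2 over 604 bases, Kcnj6 over 380, Kcnk1 over 179 and Kcnt2 over 102.

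Of the 9 auxiliary subunits none passed, and their median change was 0.02 in both fits. Kcnip3, the calcium-binding protein calsenilin or DREAM, which binds Kv4 channels and also acts as a transcriptional repressor, was at 39.4, 35.2 and 32.9 CPM in control and at 37.8, 41.3 and 45.5 CPM in NMDA libraries (0.21 ± 0.11, adjusted p = 0.42; within pairs 0.13). It passed without the libraries of number 1 (0.36, adjusted p = 0.0039). Kcnmb4, the neuronal BK beta subunit, was at 3.95, 3.34 and 2.90 CPM in control and at 5.37, 4.24 and 3.84 CPM in NMDA libraries. It was higher in each pair, by 0.44, 0.35 and 0.40 on the log2 scale, and did not pass (0.39 ± 0.22, adjusted p = 0.46; within pairs 0.14). Kcnma1, whose product it binds, was lower in the same pairs. Exons of Kcnmb4 overlap, on the other strand, those of Kcnmb4os2 over 693 bases and Kcnmb4os1 over 355. Kcnmb4os2 itself was at a mean of 3.04 CPM. Kcnip4 was the only other auxiliary gene with a change over 0.3 (27.1 ± 5.36 and 33.9 ± 8.36 CPM), and its groups overlapped. It was lower under NMDA in pair 2 and higher in the others, and passed without number 2 (0.53, adjusted p = 6.56e-04) or number 3 (0.37, adjusted p = 0.024). The Kv beta subunit Kcnab2 was at 56.2 ± 8.78 and 54.6 ± 4.04 CPM.

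Proteins that assemble with or anchor these channels but carry other names, and the KCNQ subunits, formed a list of 27 genes, of which 23 were tested. Within pairs 4 were lower (17.4%, against 8.35% of all tested genes) and none higher (5.65% of all), and the median change was -0.16. They included Kcnq3, an M-current subunit (-0.82), Dlg2, a membrane scaffold that clusters Kv1 channels (-0.47), and Kctd16, an auxiliary subunit of the GABA-B receptors that open GIRK channels (-0.81 ± 0.14, edgeR adjusted p = 7e-04). By group Kcnq3 passed. The Kv4 partners Dpp6 and Dpp10 did not pass, at 186 ± 32.1 and 169 ± 8.69 CPM and at 116 ± 9.83 and 109 ± 9.05 CPM (control and NMDA). Amigo1, which binds Kv2 channels, was at 34.0 ± 3.02 and 30.4 ± 2.38 CPM.

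The 13 genes that fell had more annotated exonic sequence than the others, with all exons of a gene merged. Their median exonic length was 7.63 kb, against 4.51 kb for the 47 that did not pass. It was 4.79 kb for all 63 and 4.43 kb for all tested genes. Lengths of single transcripts were not compared. Values of GC content are those of the longest transcript. The median GC content of the 13 genes was 47.9% against 54.2% for the 47. The 13 were also more abundant, with a median of 22.3 CPM against 11.8 CPM for the 47, and higher counts make a call easier. When offsets for GC content and exonic length were added to the fit within pairs, 11 were lower (7.55% of all tested genes) and 3 higher (6.05%). Kcnh7 (-0.25, adjusted p = 0.056), Kcnj2 (-0.58, adjusted p = 0.057) and Kcnt2 (-0.34, adjusted p = 0.064) lost their call, and Kcns3, a silent subunit, gained one (-0.71, adjusted p = 0.042). Links of level, and further links of length or GC content, to these changes were not tested.

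RefSeq start sites were matched for 47 of the 63 genes, in 69 windows of 300 bases (250 before the start and 50 after, GRCm38.p6), and 10 of the 16 genes past the threshold had a window. Windows were searched on both strands for the cAMP response element TGACGTCA, the AP-1 site TGANTCA and the EGR site GCGTGGGCG, elements bound by factors that neuronal activity induces or activates. The first was in 0 of the 69 windows (1.79% of 32851 windows of all genes), the second in 3 (4.35%, against 7.81% of all) and the third in 0 (0.612% of all). The AP-1 letters were in windows of Kcnip3, Kcnip4 and Kcnk2, which by gene is 6.38% of the 47, against 8.97% of all genes with a window. Kcnk2 has several windows, and the one at the start of the gene as GENCODE draws it showed no match. A match describes letters in the window and says nothing of binding. Shown here are the 250 bases before the start, 5′ to 3′, for the steepest fall, the fall most alike in the 3 pairs, the most abundant gene and the only one of the 10 with a match, which is in capitals and begins 126 bases before the start. Positions are chr17:83631896-83632145 (minus strand) for Kcng3, chr16:94997697-94997946 (minus) for Kcnj6, chr1:172340960-172341209 (plus) for Kcnj10 and chr1:189344193-189344442 (minus) for Kcnk2, the last 58081 bases inside the gene as GENCODE draws it.
Kcng3: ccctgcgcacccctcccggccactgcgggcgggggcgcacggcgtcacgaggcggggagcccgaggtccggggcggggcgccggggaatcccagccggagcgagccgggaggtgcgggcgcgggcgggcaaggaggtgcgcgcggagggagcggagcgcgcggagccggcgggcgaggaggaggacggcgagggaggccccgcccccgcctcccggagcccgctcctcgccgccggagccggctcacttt
Kcnj6: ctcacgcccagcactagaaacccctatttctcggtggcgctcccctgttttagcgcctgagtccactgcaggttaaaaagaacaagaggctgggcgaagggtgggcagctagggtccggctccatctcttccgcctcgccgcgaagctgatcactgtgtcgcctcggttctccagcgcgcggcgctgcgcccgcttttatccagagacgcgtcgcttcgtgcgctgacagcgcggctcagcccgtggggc
Kcnj10: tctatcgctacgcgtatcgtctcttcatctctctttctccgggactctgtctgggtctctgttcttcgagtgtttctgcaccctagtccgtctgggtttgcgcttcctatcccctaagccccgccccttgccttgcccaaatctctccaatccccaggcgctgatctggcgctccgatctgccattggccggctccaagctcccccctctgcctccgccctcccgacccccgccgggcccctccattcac
Kcnk2: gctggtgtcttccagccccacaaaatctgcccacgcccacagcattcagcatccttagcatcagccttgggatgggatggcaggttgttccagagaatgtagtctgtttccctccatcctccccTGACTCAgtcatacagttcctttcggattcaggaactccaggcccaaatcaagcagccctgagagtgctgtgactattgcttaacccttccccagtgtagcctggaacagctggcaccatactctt
The GC content of these stretches was 82.4% for Kcng3, 64.0% for Kcnj6, 62.0% for Kcnj10 and 53.2% for Kcnk2, with 41, 26, 17 and 2 CpG dinucleotides.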

How the data were processed

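Per the labels' protocols, stranded poly(A) libraries were made from total RNA and sequenced from a single end. The authors deposited raw read counts per Ensembl gene, and the submitters' processing notes name Trimmomatic, TopHat, HTSeq, mm10 and GRCm38.p6. The strand setting, annotation and versions were not given in the sources used here, so opposite-strand overlaps (exons of 20 of the 63 genes) may share reads. Totals differed by library (15417234 to 19183999), which sets the precision.

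From these counts edgeR 4.0.16 (R 4.3.3) tested NMDA against control over 14642 genes (minimum count 10, minimum total 15, TMM, robust quasi-likelihood F test, Benjamini-Hochberg threshold 0.05), by group and with the replicate number as a block. The pair correlations of 0.54, 0.38 and 0.49 all exceeded the limit of 0.1. SEs are the change over the root of F. Positions, exon unions and GC content came from GENCODE M21 (GRCm38). Alternatives used DESeq2 1.42.0, limma 3.58.1 and mgcv 1.9.3. Values per library were given for genes past the threshold in either fit, and in each class for the highest per kilobase and the largest change at a mean of at least 1 CPM. Other genes named with levels or sequences were picked afterwards. Members and lists were chosen with earlier results of these data known. Protein stretches, which had been planned, were not analysed here, and promoter windows came from RefSeq. Some genes are counted here but not reported by name. Scripts were tested on simulated counts.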

Additional observations from a re-analysis of the deposited data

How the results depend on the processing

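With the replicate block, edgeR called 3 members higher and 13 lower, against 0 and 0 by group. With the block and DESeq2 size factors these were 3 and 13, with offsets for GC content and length beside the block 3 and 11, and with the block in DESeq2 2 and 6. By group alone the DESeq2 Wald test called 5 lower and edgeR without a low-count filter 4, with 0 higher in both. Leaving out 1 library gave 0 to 2 lower and 0 higher, the 2 without NMDA replicate 1. Leaving out both libraries of a number, with the block, gave 7 to 14 lower (12 without number 2) and 1 to 4 higher. None of the 22 genes named by the rule changed sign in these or the other alternatives (upper quartile scaling, limma-voom and a filter of 1 CPM, each with 0 calls). Low levels had larger errors: by group, SEs of the log2 change ran from 0.22 to 0.42 for the 14 members under 3 CPM and from 0.076 to 0.23 for the 37 at 10 CPM or more. Per kilobase of the longest transcript, in place of all exons, Kcnd3 was at 18.7, Kcnn2 at 8.24 and Kcnip3 at 14.2 CPM per kilobase. Part of the order of levels changed on that measure. Kcnk2 (24.6) then lay above Kcnk1 (22.1), and Kcnd3 and Kcna1 (15.3) lay above Kcnj4 (14.4). The auxiliary gene Kcnab2 (14.1) was then nearly level with Kcnip3.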
